A study of Rattus norvegicus with 18 samples.

Results

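The insulin-like growth factor system of the fracture site was followed here through 8 genes, chosen by symbol: Igf1, Igf2, Igf1r, Igfbp2, Igfbp3, Igfbp4, Igfbp5, and Igfbp6. Every probe set that the array's annotation assigned to 1 of these symbols was kept, whatever it did. This gave 22 probe sets of 8799 on the array, which stood for 7 of the 8 genes. No probe set was annotated to Igfbp4, so that Igfbp4 was not analysed here. There were 5 probe sets for Igf1, 6 for Igf2, 2 for Igf1r, 3 for Igfbp2, 2 for Igfbp3, 3 for Igfbp5, and 1 for Igfbp6.

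The arrays were from female Sprague-Dawley rats with a femoral fracture held by an intramedullary rod. The groups were 3 days, 1 week, 2 weeks, 4 weeks, and 6 weeks after fracture, set against no fracture, in older (52 weeks), adult (26 weeks), and young (6 weeks) rats. Each of the 18 arrays held the pooled RNA of 2 rats, and there was 1 array for each age and time. The tissue was the middle segment of the femur, with any callus, the cortical bone, and the marrow, so that the RNA came from many cell types and fewer cells of a type cannot be told apart from less RNA per cell. The values are signals scaled by the authors to an average of 500 on each array. A floor of 100 was applied before taking log2. The tests covered the 4669 probe sets that reached 200 on 3 or more arrays. Among the 22 probe sets, 15 were tested and 7 were not. Each time was compared with no fracture over the 3 ages, and adjusted p below 0.05 was called. Since the replicates of a time are its 3 ages, these p-values rest on how far the ages differ in their course over time, a constant age difference being taken out. In the age comparisons the replicates of an age are its 5 times after fracture. None of the p-values holds the spread among rats of the same age at the same time.

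IGF-I and IGF-II are small secreted proteins related to insulin. Both signal through the type 1 receptor, a tyrosine kinase encoded by Igf1r, while the receptor encoded by Igf2r takes IGF-II into the cell for degradation. Most of the IGF outside cells is held by binding proteins, which prolong its life, carry it to a tissue, or keep it from its receptor, and which proteases can cleave to set it free. Bone is a rich store of IGF, and osteoblasts and growth plate chondrocytes respond to it.

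Some limits of the arrays touch the values below. The array of young rats at 6 weeks had a ratio of 5' to 3' Gapdh signal of 0.257, against 0.650 to 0.913 on the other arrays. The array of older rats at 1 week lay at 33.4 on the first principal component of all tested probe sets, within the range of 32.5 to 39.5 of the 3-day arrays, while the other 1-week arrays were at 9.11 and 19.4. The summed signal of 11 of 13 skeletal muscle markers was 37499 to 59665 at 3 days, against 94480 to 221308 without fracture. The summed signal of 5 of 6 fibrous matrix markers was 46448 to 57398 at 3 days, 40946 to 65512 at 1 week, and 39279 to 52283 at 2 weeks, against 4531 to 20133 without fracture. For cartilage, 6 of 9 markers were on the array and their sum was 3782 to 6120 at 3 days, 10432 to 18444 at 1 week, and 17132 to 24540 at 2 weeks, against 265 to 2218 without fracture. The sum of 6 of 9 osteoblast markers was 56347 to 71752 at 3 days, against 19222 to 55692 without fracture. Blood cell markers moved too. The sum at 3 days was 5212 to 11774 for 4 of 8 erythroid markers, against 50891 to 77487 without fracture. It was 1112 to 14574 for 4 of 8 neutrophil markers, against 43421 to 78643, and 4348 to 5638 for 3 of 7 macrophage markers, against 992 to 1723. Col9a1 and the macrophage gene Csf1r were below 200 on every array. At 3 days these sums moved together with the Igf1 and Igfbp3 calls of that time. The part of these tissues in the results was not tested.

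Igf1, Igf2, and Igfbp3 were each called on at least 1 probe set at both 1 and 2 weeks. Their promoter sequences are shown for this reason. They are taken from RefSeq on the GRCr8 build, with 250 bases before and 50 after each annotated start, and Igf2 had 2 such starts. The windows are chr7:24172282-24172581 on the plus strand for Igf1, chr1:207253931-207254230 and chr1:207250426-207250725 on the minus strand for Igf2, and chr14:86277895-86278194 on the minus strand for Igfbp3. Capitals mark matches on either strand to TATAAA (the TATA box), GGGCGG (the GC box), TGANTCA (which covers the AP-1 site), or ACGTG (the core of the hypoxia response element).
Igf1: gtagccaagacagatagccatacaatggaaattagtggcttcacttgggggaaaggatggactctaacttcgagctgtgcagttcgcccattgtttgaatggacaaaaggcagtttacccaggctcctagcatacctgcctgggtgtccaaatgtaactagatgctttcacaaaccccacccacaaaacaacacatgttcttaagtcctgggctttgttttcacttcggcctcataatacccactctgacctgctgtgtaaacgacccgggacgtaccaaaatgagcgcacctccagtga
Igf2, first start: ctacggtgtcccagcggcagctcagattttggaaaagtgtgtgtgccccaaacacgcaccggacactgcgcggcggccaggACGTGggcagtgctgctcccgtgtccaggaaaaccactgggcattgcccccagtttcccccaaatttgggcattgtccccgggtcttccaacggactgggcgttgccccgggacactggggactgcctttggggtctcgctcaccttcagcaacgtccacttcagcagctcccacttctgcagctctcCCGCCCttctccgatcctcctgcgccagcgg
Igf2, second start: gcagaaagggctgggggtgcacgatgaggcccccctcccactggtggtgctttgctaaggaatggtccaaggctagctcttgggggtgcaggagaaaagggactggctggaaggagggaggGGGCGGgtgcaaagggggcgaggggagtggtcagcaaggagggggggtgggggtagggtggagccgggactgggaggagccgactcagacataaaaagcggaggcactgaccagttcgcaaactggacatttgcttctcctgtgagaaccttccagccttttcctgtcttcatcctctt
Igfbp3: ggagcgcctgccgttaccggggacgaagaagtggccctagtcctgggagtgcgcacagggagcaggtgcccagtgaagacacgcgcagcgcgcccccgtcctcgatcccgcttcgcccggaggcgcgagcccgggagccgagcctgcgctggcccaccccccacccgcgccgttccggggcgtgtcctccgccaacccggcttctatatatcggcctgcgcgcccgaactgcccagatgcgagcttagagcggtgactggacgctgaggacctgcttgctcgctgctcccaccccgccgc
Among 33469 promoters of this length, TATAAA was found in 14.2%, GGGCGG in 33.1%, TGANTCA in 7.33%, and ACGTG in 19.3%. The Igf2 windows held 1 GGGCGG each, and that of the first start also 1 ACGTG. The Igf1 and Igfbp3 windows held none of these letters. A match is only a description of the sequence.

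At 3 days, 5 of the 15 tested probe sets were called. Of these, 3 rose (1 of Igf1 and both of Igfbp3) and 2 fell (both of Igf2). Among all 4669 probe sets, 24.5% rose and 19.7% fell at this time. At 1 week, 8 rose and 0 fell, for Igf1, Igf2, Igfbp3, and Igfbp5, with 14.3% rising and 10.5% falling over the whole array. At 2 weeks, 4 rose and 0 fell, for Igf1, Igf2, and Igfbp3, with 12.8% rising and 8.27% falling over the whole array. No member was called at 4 weeks, where 6.49% of all were called in either direction, or at 6 weeks, where 4.39% were. By limma with no adjustment, 2 members had p below 0.05 at 4 weeks, where 19.9% of all did, and 2 at 6 weeks, where 19.8% did. By the methods' t-test these counts were 0 and 1. The median log2 fold change of the 15 probe sets was 0.09, 1.17, 0.32, 0.35, and 0.18 at 3 days, 1, 2, 4, and 6 weeks. Over all tested probe sets the median was at most 0.05 from 0.

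**Figure D1:**
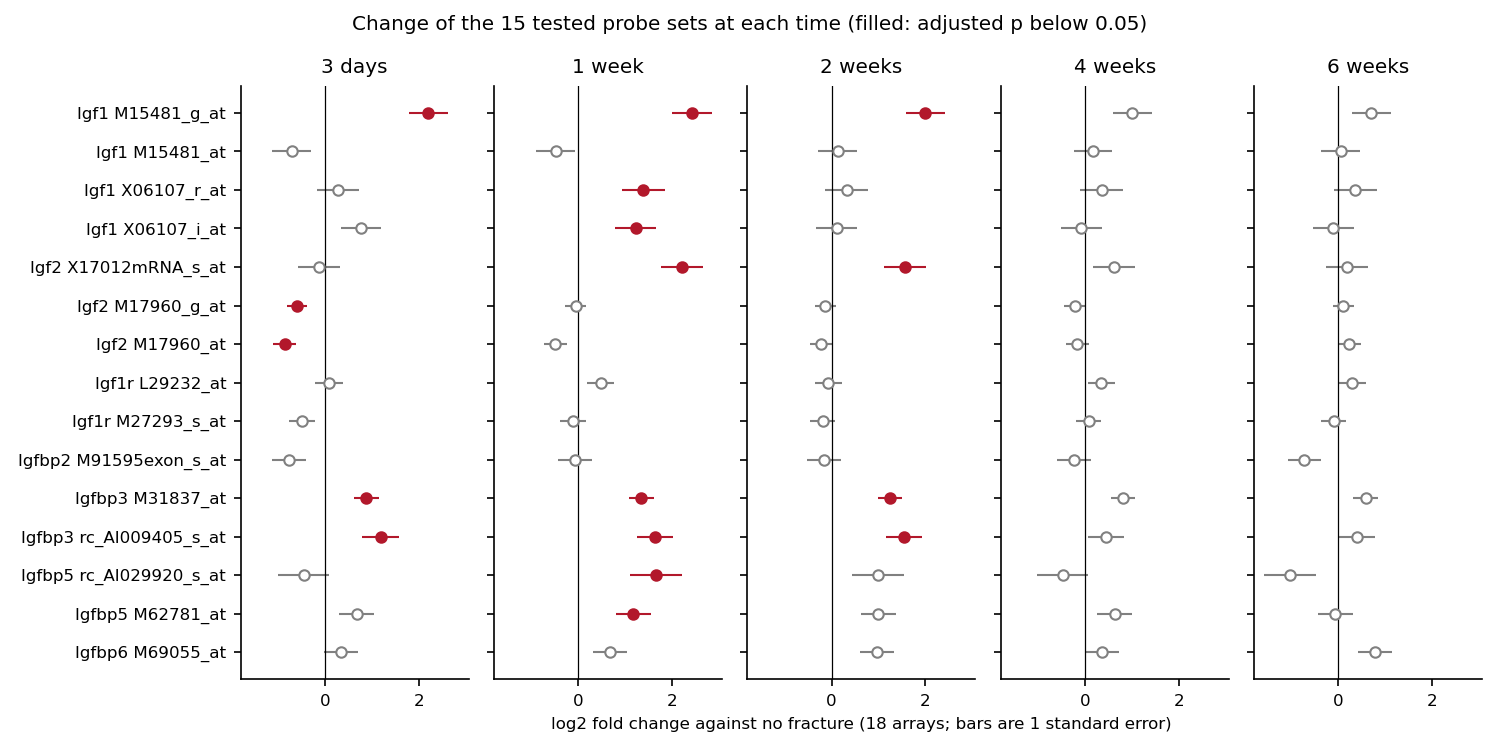
The log2 fold change against no fracture (horizontal axis, from the limma fit of 18 arrays) of the 15 tested probe sets (rows), with 1 panel per time. Bars are 1 standard error and filled points have adjusted p below 0.05. The called changes are at 3 days, 1 week, and 2 weeks, and at 1 and 2 weeks all lie to the right of 0.

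Igf1 was measured most brightly by M15481_g_at, and this probe set had the largest change among the members. In young rats its signal was 1332 without fracture, 3933 at 3 days, 2339 at 1 week, 2169 at 2 weeks, 974 at 4 weeks, and 1077 at 6 weeks. In adult rats it was 534 without fracture, 3662 at 3 days, 3708 at 1 week, 2331 at 2 weeks, 1417 at 4 weeks, and 940.1 at 6 weeks. In older rats it was 586 without fracture, 2832 at 3 days, 7413 at 1 week, 5284 at 2 weeks, 2466 at 4 weeks, and 1777 at 6 weeks. The highest signal was at 3 days in young rats and at 1 week in older rats, while adult rats had similar signals at both times. All arrays at 3 days, 1 week, and 2 weeks were above all 3 arrays without fracture. Such lack of overlap, in either direction, was found for 50.6%, 31.4%, and 28.2% of all 4669 probe sets at these times. Among the 15 member probe sets, 5 lay above and 3 below at 3 days, 6 above at 1 week, and 4 above at 2 weeks.

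The Igf1 signal averaged 3476 ± 573 at 3 days, 4487 ± 2625 at 1 week, and 3262 ± 1753 at 2 weeks, against 817 ± 446 without fracture (SD, n = 3 ages each). The log2 fold change was 2.20 ± 0.42 at 3 days (SE, limma adjusted p = 0.000739), 2.42 ± 0.42 at 1 week (adjusted p = 0.000676), and 2.00 ± 0.42 at 2 weeks (adjusted p = 0.00343). These are folds of 4.61, 5.36, and 4.00. At 4 weeks it was 1.01 ± 0.42 (adjusted p = 0.18) and at 6 weeks 0.70 ± 0.42 (adjusted p = 0.38). The call at 3 days was kept under all 29 alternatives run and that at 1 week under 28, all but the methods' t-test (adjusted p = 0.155). The call at 2 weeks was kept under 27, and was lost on the 6 arrays of both groups alone (adjusted p = 0.0593) and by the methods' t-test (adjusted p = 0.208).

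The other Igf1 probe sets followed this pattern in part or not at all. M15481_at, built from the same transcript accession, had 393, 409, and 232 at 3 days in young, adult, and older rats, against 601, 361, and 748 without fracture. It was not called at any time (log2 fold change -0.71 ± 0.41 at 3 days, adjusted p = 0.173), and its correlation with M15481_g_at on the log2 scale was -0.23 over the 18 arrays. X06107_r_at was called at 1 week (1.39 ± 0.45, adjusted p = 0.0351), with signals of 260, 276, and 1487 in young, adult, and older rats, against 152, 253, and 155 without fracture. X06107_i_at was called at 1 week (1.23 ± 0.43, adjusted p = 0.0497), with 72.4, 361, and 607 at 1 week, against 32.9, 29.6, and 171 without fracture, 2 of them below the floor. At 3 days X06107_i_at had 249, 181, and 187, above all 3 arrays without fracture but not called (0.77 ± 0.43, adjusted p = 0.163). At that time 50.6% of all tested probe sets did not overlap with no fracture. The 1-week calls were weak, that of X06107_i_at being lost under 19 of 28 alternatives and that of X06107_r_at under 9 of 28, both including the fit without the array of older rats at 1 week. D00698_s_at was too dim to be tested, with signals below the floor on 10 of the 18 arrays. It followed M15481_g_at only in part. In young rats at 2 weeks it had 76.0 and in older rats at 4 weeks 63.1, both below no fracture, where M15481_g_at was above. At 3 days and 1 week its signals were higher than without fracture at all 3 ages. They were 178, 176, and 148 at 3 days and 153, 120.3, and 275 at 1 week in young, adult, and older rats, against 94.7, 46.8, and 75.0 without fracture.

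Igf2, the fetal and growth-related member of the pair, was read by X17012mRNA_s_at at signals as high as those of Igf1, although signals of different probe sets do not compare levels. In young rats the signal was 2966 without fracture, 2330.1 at 3 days, 5525 at 1 week, 2308 at 2 weeks, 2147 at 4 weeks, and 1452 at 6 weeks. In adult rats it was 1174 without fracture, 933 at 3 days, 6224 at 1 week, 5136 at 2 weeks, 1994 at 4 weeks, and 1803 at 6 weeks. In older rats it was 574 without fracture, 698 at 3 days, 5810.0 at 1 week, 4347 at 2 weeks, 1679.8 at 4 weeks, and 1117 at 6 weeks. The ages were spread out without fracture, with older lowest and young highest, and stood within 5525 to 6224 at 1 week.

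Igf2 on this probe set was not called at 3 days (log2 fold change -0.13 ± 0.45). At 1 week its signal averaged 5853 ± 351, against 1571 ± 1245 without fracture (SD, n = 3 ages each), a log2 fold change of 2.22 ± 0.45 (limma adjusted p = 0.00198), or 4.64-fold. At 2 weeks it was 1.56 ± 0.45 (adjusted p = 0.0216), and there the groups overlapped because the young array without fracture was above the young array at 2 weeks. This call was lost without the adult or the older array of either group, and without a filter on low signals. It was also lost on the 6 arrays of both groups alone, with adjusted p up to 0.171 over the limma alternatives. By the methods' t-test it was lost too (adjusted p = 0.366). The log2 fold change was 0.62 ± 0.45 at 4 weeks and 0.18 ± 0.45 at 6 weeks, neither called.

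The M17960 probe sets of Igf2 fell at 3 days, where X17012mRNA_s_at was not called. M17960_at had 166, 180.0, and 135 at 3 days in young, adult, and older rats, against 299, 335, and 239.6 without fracture. Its log2 fold change was -0.86 ± 0.24 (adjusted p = 0.00913). M17960_g_at had 373, 369, and 358, against 459, 669, and 555, with -0.60 ± 0.22 (adjusted p = 0.0398). The groups did not overlap on either, as was so for 50.6% of all tested probe sets at 3 days. The M17960_g_at call was lost without the older array at 3 days (and 5 other single arrays), with adjusted p up to 0.179 over all alternatives. The muscle markers given above were also lower on the 3-day arrays, and their part in these 2 calls was not tested. Neither M17960 probe set was called at a later time, and over the 18 arrays they correlated with X17012mRNA_s_at at 0.16 and -0.02. E00988mRNA_s_at, X16703_r_at, and X16703_i_at were not tested, with signals of at most 155 on every array.

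**Figure D2:**
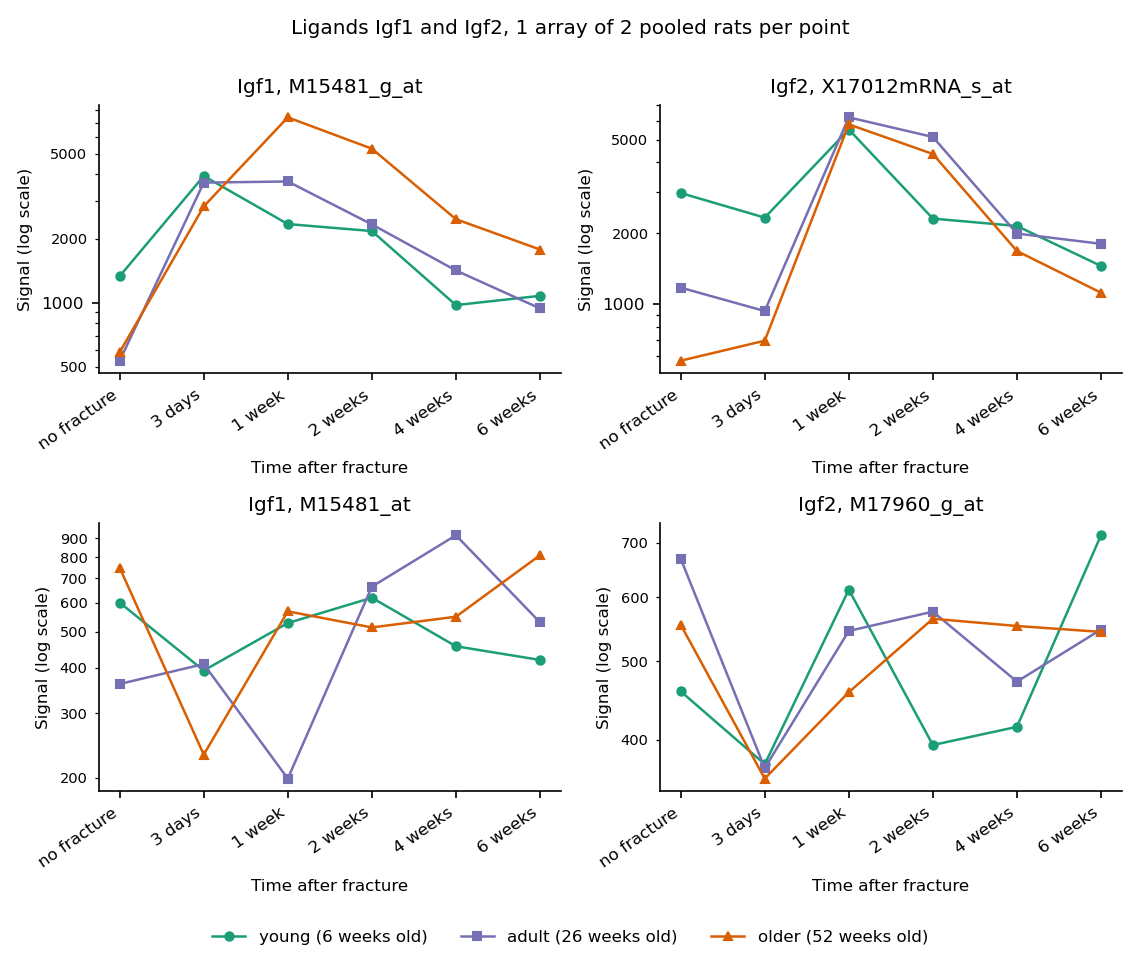
Signals (vertical log axis) of 2 Igf1 and 2 Igf2 probe sets by time after fracture (horizontal axis), with 1 line per age and 1 array per point. The upper panels show Igf1 M15481_g_at, which peaked at 7413 in older rats at 1 week, and Igf2 X17012mRNA_s_at, where the 3 ages met at 5525 to 6224 at 1 week. The lower panels show probe sets of the same genes without this pattern.

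The type 1 receptor was not called at any time on either probe set. Igf1r on L29232_at had signals of 145 to 364 with a median of 267. Its log2 fold changes ran between -0.07 ± 0.29 at 2 weeks and 0.48 ± 0.29 at 1 week (adjusted p = 0.246). M27293_s_at had signals of 133 to 356 with a median of 211. Its log2 fold change was -0.49 ± 0.27 at 3 days (adjusted p = 0.157) and between -0.19 and 0.08 later. The correlation of these 2 probe sets was 0.04 over 18 arrays.

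Igf2r, from the list of other pathway genes, rose at 3 days, 1 week, and 2 weeks. Its probe set U59809_s_at had 1251, 1374, and 1194 at 3 days, 1441, 1600.3, and 1248 at 1 week, and 1349, 1447, and 1488 at 2 weeks in young, adult, and older rats. Without fracture these were 625, 929, and 198. The log2 fold changes were 1.39 ± 0.35 (adjusted p = 0.00491), 1.55 ± 0.35 (adjusted p = 0.00423), and 1.55 ± 0.35 (adjusted p = 0.00499). The array of older rats without fracture stood far below the other 2.

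**Figure D3:**
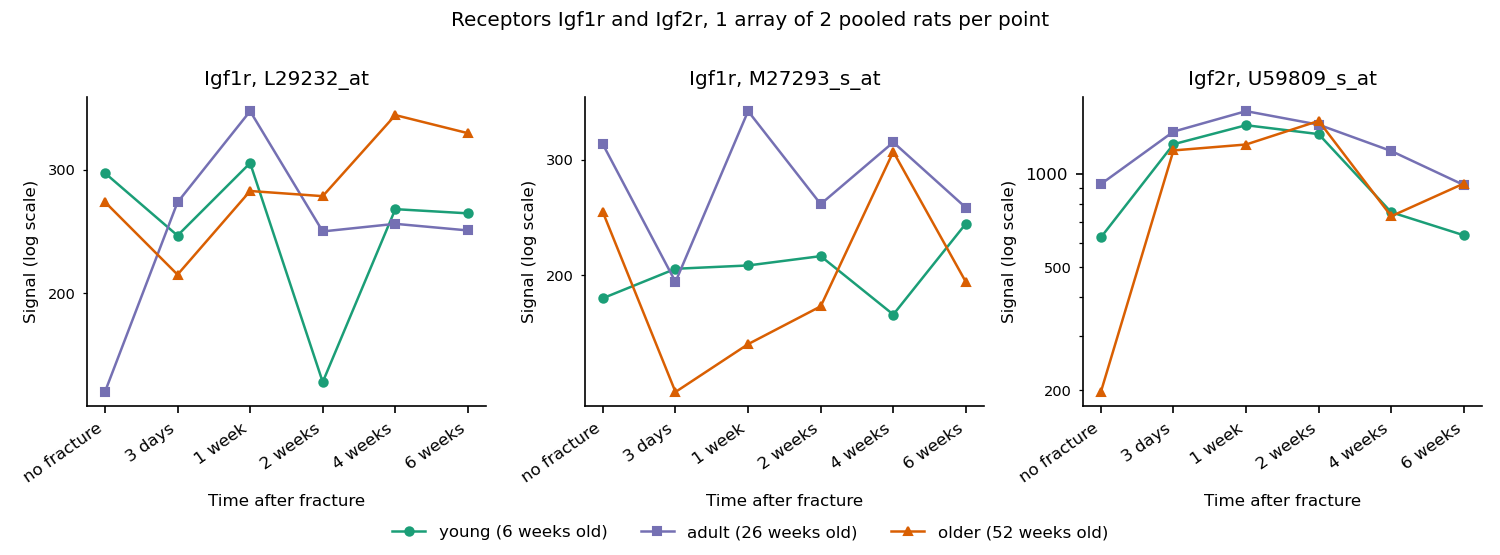
Signals (vertical log axis) of both Igf1r probe sets and of Igf2r by time after fracture (horizontal axis), 1 line per age and 1 array per point. Igf1r shows no order of times shared by the ages, and Igf2r was at 1194 or more on all arrays from 3 days to 2 weeks.

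Igfbp3, which encodes the main carrier of IGF in blood, rose at 3 days, 1 week, and 2 weeks on both of its probe sets. M31837_at had 733, 399.6, and 412 at 3 days, 707, 473, and 945 at 1 week, and 606, 627, and 674 at 2 weeks in young, adult, and older rats. Without fracture it had 398, 179, and 271. Every array at these times was above all 3 without fracture, where 50.6%, 31.4%, and 28.2% of all probe sets did not overlap. Its log2 fold change was 0.88 ± 0.26 at 3 days (adjusted p = 0.0129), 1.34 ± 0.26 at 1 week (adjusted p = 0.00145), and 1.24 ± 0.26 at 2 weeks (adjusted p = 0.00343). At 4 weeks it was 0.81 ± 0.26 (adjusted p = 0.0803) and at 6 weeks 0.59 ± 0.26 (adjusted p = 0.226), above no fracture at all 3 ages both times.

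The second Igfbp3 probe set, rc_AI009405_s_at, was dimmer. It had 336, 216, and 241 at 3 days, 278, 469, and 349 at 1 week, and 309, 316, and 372 at 2 weeks, against 149, 92.8, and 88.7 without fracture. The log2 fold changes were 1.18, 1.64, and 1.54 (SE 0.39, adjusted p = 0.0213, 0.00538, and 0.00987). Since 2 of the 3 arrays without fracture were below the floor, these sizes depend on it. The 2 probe sets correlated at 0.77 over the 18 arrays. The 3-day calls of both were lost without the young array at 3 days and without the adult array without fracture, with adjusted p up to 0.0771 for M31837_at and 0.186 for rc_AI009405_s_at over the limma alternatives. The second was also lost without the older array without fracture, at 3 days and at 2 weeks (adjusted p = 0.0567 at 2 weeks).

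Igfbp5, which binds to bone matrix and is abundant there, rose at 1 week on both tested probe sets. On rc_AI029920_s_at the signals at 1 week were 989, 1101, and 329 in young, adult, and older rats, against 314, 252, and 147 without fracture. All 3 were above the highest array without fracture, by little in older rats. At 1 week 31.4% of all tested probe sets did not overlap with no fracture. The log2 fold change was 1.65 ± 0.55 (adjusted p = 0.0392). At 2 weeks the signals were 182, 1016, and 499, so that young rats were low and adult and older rats high, and the change was not called (1.00 ± 0.55, adjusted p = 0.231). At 6 weeks they were 21.0, 139, and 97.6, all below the 3 arrays without fracture, by little in adult rats (-1.02 ± 0.55, adjusted p = 0.325). Since 2 of these signals were below the floor, this size depends on it. The young array at 6 weeks is the one with the low Gapdh ratio. At that time 14.4% of all did not overlap.

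M62781_at, also of Igfbp5, had 247, 164, and 473 at 1 week, against 167, 43.8, and 49.9 without fracture, 2 of them below the floor. The log2 fold change was 1.17 ± 0.37 (adjusted p = 0.0301), a size that depends on the floor, and the adult array at 1 week was below the young array without fracture. The older array was highest on M62781_at and lowest on rc_AI029920_s_at at 1 week, and the 2 probe sets correlated at 0.43 over the 18 arrays. The M62781_at call was lost without the older array at 1 week, and without the young one, and the rc_AI029920_s_at call without the young or the adult one. Both were lost without the adult or the older array without fracture. The remaining probe set, rc_AI070577_at, was not tested, with signals of at most 65.6.

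Igfbp2 and Igfbp6 were not called at any time. Igfbp2, another carrier protein, had 196, 174, and 235 on M91595exon_s_at at 3 days in young, adult, and older rats, against 417, 403, and 236 without fracture. Its log2 fold change was -0.77 ± 0.36 (adjusted p = 0.0941), and the older pair differed by little. At 1 week it was -0.07 ± 0.36. J04486_at, with signals of 10.6 to 215, and A09811cds_s_at, with at most 39.3, were not tested. Igfbp6, which binds IGF-II in preference to IGF-I, had 1092, 1815, and 1867 on M69055_at at 2 weeks, against 863, 1334, and 434 without fracture. Its log2 fold change there was 0.96 ± 0.36 (adjusted p = 0.0714), higher at all 3 ages but with overlapping groups.

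**Figure D4:**
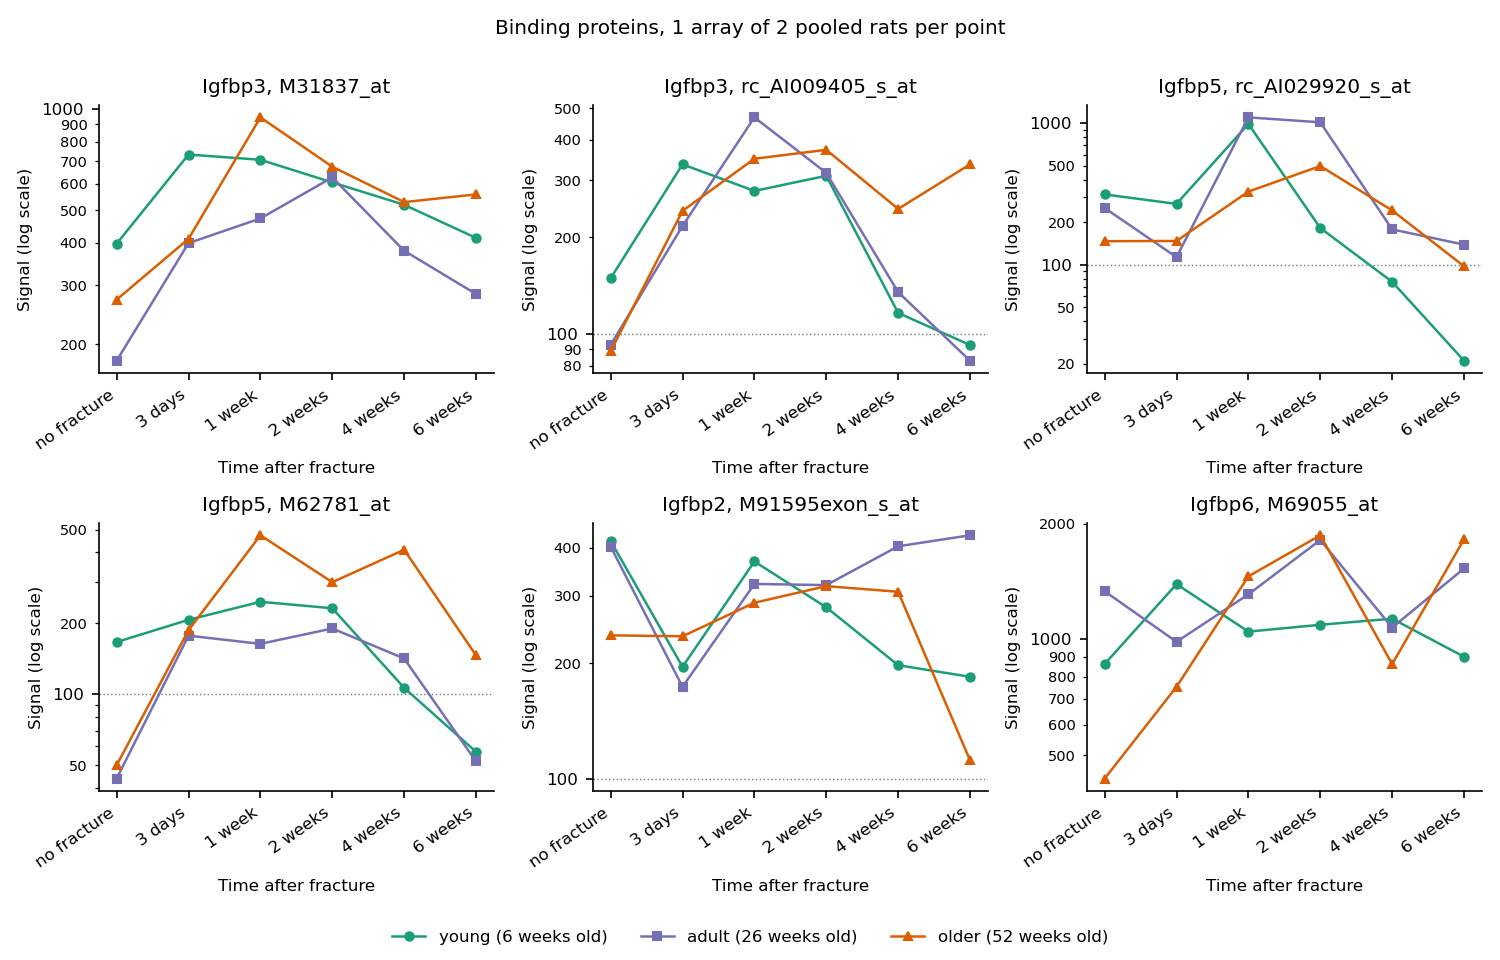
Signals (vertical log axis) of 6 binding protein probe sets by time after fracture (horizontal axis), 1 line per age and 1 array per point, with the floor of 100 as a dotted line where values come near it. Both Igfbp3 probe sets were above no fracture from 3 days to 2 weeks, Igfbp5 was high at 1 week with the ages in opposite order on its 2 probe sets, and Igfbp2 and Igfbp6 crossed between ages.

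The next question was whether the response differed with age. Over the 15 arrays after fracture, 0 of the 15 probe sets were called between older and young rats, where 0.15% of all were called, and 2 had an unadjusted limma p below 0.05 (20.8% of all did). Between older and adult rats 0 were called, where 3.73% of all were, and 4 had an unadjusted p below 0.05 (26% of all did). Leaving out any of 9 of the 15 arrays left 0 of all probe sets called between older and adult rats. Between adult and young rats 0 were called, where 0% of all were, and 1 had an unadjusted p below 0.05 (13.2% of all did). By the methods' t-test the numbers with unadjusted p below 0.05 were 0, 1, and 1.

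Igf1 on M15481_g_at was nearest to a call between older and young rats, and Igfbp5 on M62781_at between older and adult rats. The Igfbp5 log2 difference was 0.87 ± 0.26 for older minus adult rats (limma adjusted p = 0.0663). For older minus young rats it was 0.73 ± 0.26 (adjusted p = 0.132). The Igf1 signal in older rats was 0.72 times that in young rats at 3 days. It was then 3.17 times at 1 week, 2.44 times at 2 weeks, 2.53 times at 4 weeks, and 1.65 times at 6 weeks. Without fracture it was 0.44 times. Against adult rats the older signal was 0.77 times at 3 days and between 1.74 and 2.27 times at the 4 later times. The Igf1 log2 difference over all 5 times was 0.91 ± 0.24 for older minus young rats (adjusted p = 0.0717). For older minus adult rats it was 0.71 ± 0.24 (adjusted p = 0.0964). Igf1 in older rats was thus low at 3 days and high at each later time.

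These age results changed when the 3-day arrays were left out, an alternative chosen after these values were seen. Igf1 on M15481_g_at was then called between older and young rats (log2 difference 1.25 ± 0.17, limma adjusted p = 0.00279) and between older and adult rats (0.97 ± 0.17, adjusted p = 0.00503). Igfbp5 on M62781_at was called in both as well (0.95 ± 0.27, adjusted p = 0.0457, and 1.07 ± 0.27, adjusted p = 0.0218). Igfbp3 on M31837_at was called between older and adult rats (0.64 ± 0.18, adjusted p = 0.0363). This made 2 and 3 of 15, where 9.08% and 15.8% of all probe sets were called. Leaving out the older 3-day array alone gave the same 2 and 3 calls, where 9.79% and 13.7% of all were called. Leaving out the young one gave 1, Igf1, between older and young rats (1.12 ± 0.23, adjusted p = 0.0256), where 3.96% of all were called. The summed muscle markers were 59665 to 96759 in older, 37499 to 186458 in adult, and 58648 to 178288 in young rats after fracture. In the same order the fibrous matrix sums were 35000 to 54544, 21702 to 65512, and 16431 to 57398. The macrophage sums were 3044.5 to 5035, 1495 to 4348, and 1437 to 5638, and the neutrophil sums 584 to 11730, 555.5 to 29610, and 3842 to 59134. The part of these and the other marker tissues in these differences was not tested.

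**Figure D5:**
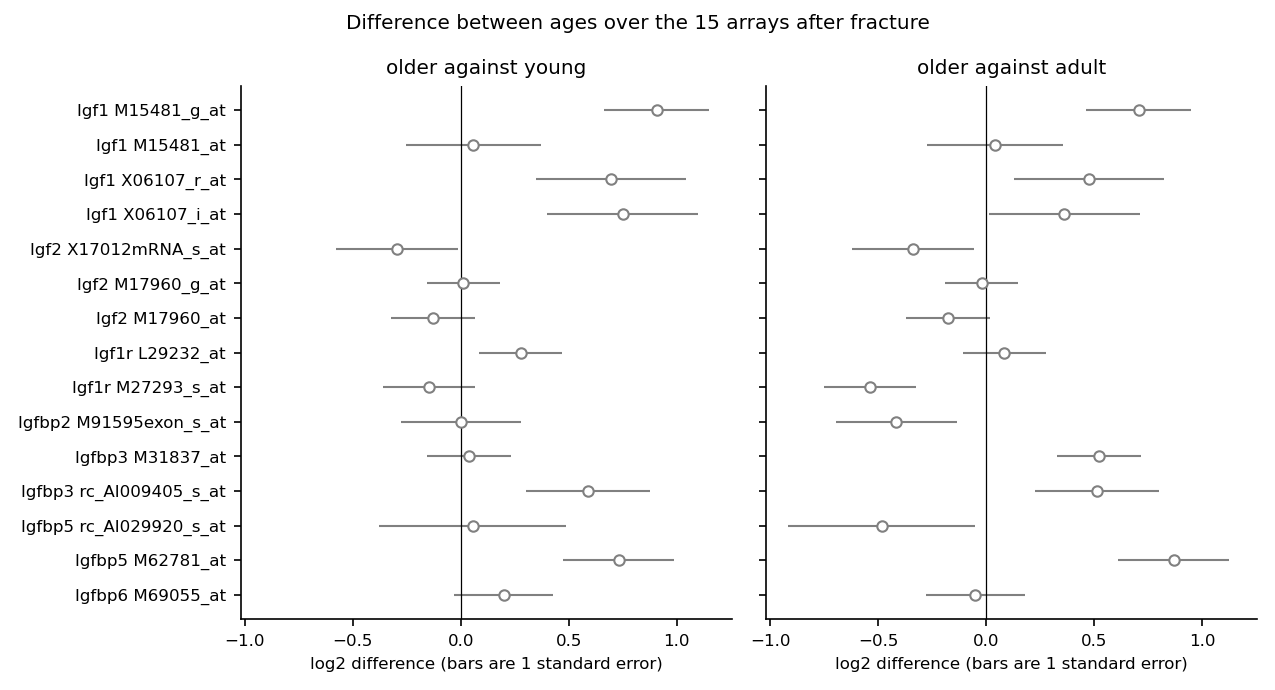
The log2 difference of older against young rats (left) and of older against adult rats (right) for the 15 tested probe sets (rows), over the 15 arrays after fracture with 1 standard error. Igf1 M15481_g_at stood at 0.91 and 0.71 and Igfbp5 M62781_at at 0.73 and 0.87, and no point passed the threshold.

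Each age can also be set against its own array without fracture. For Igf1 M15481_g_at the ratio in older rats was 4.84 at 3 days, 12.7 at 1 week, 9.02 at 2 weeks, 4.21 at 4 weeks, and 3.04 at 6 weeks. In young rats it was 2.95 at 3 days, 1.76 at 1 week, 1.63 at 2 weeks, 0.73 at 4 weeks, and 0.81 at 6 weeks. In adult rats it was 6.85 at 3 days, 6.94 at 1 week, 4.36 at 2 weeks, 2.65 at 4 weeks, and 1.76 at 6 weeks. Young rats were thus below their own starting array by 4 weeks, and adult and older rats were still above theirs at 6 weeks. The young starting array was the highest, at 1332 against 534 in adult and 586 in older rats. The young array at 6 weeks is the one with the low Gapdh ratio. For Igf2 X17012mRNA_s_at the ratio at 1 week was 10.1 in older rats, 5.30 in adult rats, and 1.86 in young rats. These ratios rest on 1 array each way and combine a difference before fracture with one after it.

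The test of this departure compared older minus young after fracture with older minus young without fracture. For Igf1 M15481_g_at the 2 differences were 0.91 and -1.19 on the log2 scale, a departure of 2.09 ± 0.60 (SE, limma adjusted p = 0.0913). For Igf2 X17012mRNA_s_at they were -0.30 and -2.37, a departure of 2.07 ± 0.69 (adjusted p = 0.141). No member was called, where 2.55% of all probe sets were, and 3 had an unadjusted p below 0.05 (16.5% of all did). Without the 3-day arrays both were called, Igf1 at 2.44 ± 0.39 (adjusted p = 0.0059) and Igf2 at 2.43 ± 0.48 (adjusted p = 0.0161), where 3.17% of all were. The test turns on single arrays without fracture.

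Among 50 other genes of the pathway, 41 were on the array and 28 were tested with 43 probe sets. At 3 days 12 of the 43 rose and 7 fell, at 1 week 3 rose and 2 fell, at 2 weeks 2 rose and 3 fell, and at 6 weeks 1 fell. At 3 days these shares, 27.9% and 16.3%, were near the 24.5% and 19.7% of the whole array. At 1 week they were 6.98% and 4.65%, against 14.3% and 10.5%, and at 2 weeks 4.65% and 6.98%, against 12.8% and 8.27%. The genes called are named below for what each did, not as a shift of the pathway. Among genes tied to growth hormone, Ghr, the growth hormone receptor, fell, with log2 fold changes of -0.90 ± 0.26 at 3 days (adjusted p = 0.0117) and -0.79 ± 0.26 at 1 week (adjusted p = 0.0366), and fell at 2 weeks too (adjusted p = 0.0122). Igfals, which joins IGF and Igfbp3 in the blood complex, fell at 3 days on S46785_at (-0.95 ± 0.21, adjusted p = 0.00235). Its other probe sets were not called (-0.44 ± 0.24 and 0.04 ± 0.25). Stat5b, which relays growth hormone signals, fell at 3 days (-0.59 ± 0.23, adjusted p = 0.0455). Jak2, the kinase of the growth hormone receptor, rose on both probe sets at 3 days (1.15 ± 0.33, adjusted p = 0.0104, and 0.67 ± 0.24, adjusted p = 0.0337).

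Downstream of the receptors the calls at 3 days were mixed. Irs1, the docking protein of the insulin and IGF receptors, rose (1.13 ± 0.25, adjusted p = 0.00182), as did Grb10, an adaptor that dampens them (1.48 ± 0.33, adjusted p = 0.00205). Eif4ebp1, a brake on translation controlled by this pathway, rose on 2 of 3 probe sets (1.49 ± 0.24, adjusted p = 0.000192, and 0.72 ± 0.20, adjusted p = 0.00901), the other having -0.14 ± 0.37. Socs3 also rose, as did 1 of 2 probe sets each of Akt1, Rps6kb1, and Ctsd. Insr, the insulin receptor (-0.90 ± 0.27, adjusted p = 0.0142), and Pik3cd (-1.21 ± 0.32, adjusted p = 0.0062) fell, and so did Ins1. Of 3 Grb2 probe sets 1 rose, 1 fell, and 1 was not called. At 1 week Grb10 and Socs3 rose and Pik3cd fell, and at 2 weeks Irs1 rose and Insr and Pik3cd fell. Without fracture Irs1 was dim, at 112, 74.2, and 92.8 in young, adult, and older rats. Socs3 had 55.4, 88.8, and 64.5. The sizes of their rises thus depend on the floor of 100. Irs1 passed the filter only through the adult and older arrays at 3 days and the older array at 2 weeks. Socs3 passed it only through arrays from 3 days to 2 weeks. The rises of both carry this selection. The 1 that fell at 6 weeks was 1 of 4 Ptpn1 probe sets, and the other 3 had values between -0.34 and 0.32.

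With age, Irs1 was higher in older than in adult rats after fracture (0.75 ± 0.18, adjusted p = 0.0382). This call was lost when any of 9 of the 15 arrays was left out (adjusted p up to 0.13). Irs1 was also dim, at 79.9 in adult rats at 6 weeks, below the floor. It passed the filter only through 2 older arrays, at 282 and 239, and the adult array at 3 days, at 234, so the call carries this selection. The departure between older and young rats was called for Grb10 (1.87 ± 0.39, adjusted p = 0.022) and Igf2r (1.74 ± 0.37, adjusted p = 0.0257). The Grb10 call was kept without each of the 16 arrays that could be left out, and that of Igf2r was lost without the older array at 2 weeks (adjusted p = 0.051). The young and the older array without fracture, on which the departure turns, could not be left out. Their Grb10 signals were 1947.5 and 736.9. For Igf2r the array of older rats without fracture, at 198, was the low one, against 625 in young rats.

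The members can also be described by the genes whose log2 signals ran most nearly parallel to theirs over the 18 arrays, among 2879 genes. For Igf1 M15481_g_at these were Cnn3 (Pearson r = 0.95), C1qtnf6 (0.95), and Tagln (0.95). For Igf2 X17012mRNA_s_at they were Myh3, the embryonic myosin heavy chain (0.96), Cdh22 (0.91), and Klk1 (0.87). For Igfbp3 M31837_at they were Plagl1 (0.89), Lum (0.87), and Fbln5 (0.85), and for Igfbp5 rc_AI029920_s_at Wdfy1 (0.96), Nfix (0.88), and Cpd (0.88). The highest r was lower for Igfbp6 (Lamb2, 0.83), Igfbp2 (Ensa, 0.78), and Igf1r (Cacna1c, 0.72). Among the brightest probe sets of the members themselves Igf1 M15481_g_at and Igfbp3 M31837_at ran at 0.80, Igf2 X17012mRNA_s_at and Igfbp5 rc_AI029920_s_at at 0.80, and Igf1 and Igf2 at 0.53. With dimmer probe sets Igf1 M15481_g_at ran at 0.87 (Igfbp3 rc_AI009405_s_at), 0.82 (Igfbp5 M62781_at), and -0.61 (Igf2 M17960_at). The arrays share the time course of the whole tissue, so that these values describe likeness of pattern only.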

How the data were processed

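The authors hybridized cRNA from the mid-femur of rats to Affymetrix rat arrays and deposited intensity values (MAS 5.0 signals) that were scaled to an average of 500 per array. The 18 arrays used here were 1 per age and time, and detection calls were not used. Symbols came from the platform annotation, updated by gene identifier for 6994 of 7326 annotated probe sets, and 1473 probe sets had none.

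Signals below 100 were set to 100 before log2. limma 3.58.1 in R 4.3.3 (lmFit, eBayes with trend, two-sided) was fitted to 4669 probe sets. Times were compared over 18 arrays with age as a term (10 residual degrees of freedom) and ages over 15 arrays, those without fracture left out, with a term for time (8). The departure of older minus young from no fracture used all 18 arrays (8). Adjustment was by Benjamini and Hochberg over all probe sets tested. The fits were tested on simulated data. Figures were drawn with matplotlib 3.10.9.

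The probe sets named were all those of the member symbols, plus called genes of a pathway list and the 3 genes most like each member. Members and lists were chosen with earlier results of these data known. The alternatives were other floors, filters, scalings, arrays, terms, and the methods' t-test, on the same log2 values. Signals of an array carry no count of molecules, and the number of arrays limits the precision.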

Additional observations from a re-analysis of the deposited data

Results flagged for a closer look

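Each of the 15 tested probe sets gave 3 groups of 5 arrays, those of 1 age after fracture. Among these 45 groups, 4 held an array far from the other 4 on the log2 scale with the floor applied. Chance gives about 1 such group in 20. The 5 arrays of a group are of different times. For Igf1 X06107_r_at the older array at 1 week had 1486.7, against 283.6 for the next highest older array. For Igf1 X06107_i_at the young array at 3 days had 248.5, against 100.3 for the next. The young arrays at 1, 2, and 4 weeks had 72.4, 36.0, and 78.1, all set to the floor of 100. This flag therefore depends on the floor. For Igf1r L29232_at the adult array at 1 week had 363.7, against 269.6 for the next. For Igfbp2 M91595exon_s_at the older array at 6 weeks had 111.6, against 235.1 for the next lowest.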

How the results depend on the processing

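None of the 17 calls reversed its direction in a refit. Over 486 refits of these calls, 403 kept the call and 83 lost it. The number of members called at 3 days (5) was 3 with the filter at 500, 3 on the 6 arrays of both groups alone, and 1 by the methods' t-test. At 1 week (8) it was 4 with no filter, 4 with the filter at 500, 5 without both the older 1-week and the young 6-week array, 5 on the 6 arrays alone, and 0 by the methods' t-test (4 with unadjusted p below 0.05). At 2 weeks (4) it was 1 on the 6 arrays alone and 0 by the methods' t-test (4 unadjusted). Ages were matched by time and times by age, and with no replicate block (no age term) the 1-week count was 4. The cause of these changes was not tested.

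Leaving out each array in turn gave 2 to 6 calls at 3 days, 4 to 8 at 1 week, 2 to 5 at 2 weeks, 0 to 2 at 4 weeks, and 0 to 1 at 6 weeks. The calls at 4 weeks (Igf1 M15481_g_at and Igfbp3 M31837_at) and at 6 weeks (Igf1 M15481_g_at) came without the young array without fracture. It gave 0 to 2 for older against young, 0 to 3 for older against adult, 0 for adult against young, and 0 to 2 for the departure, which could not be fitted without the young or the older array without fracture. Without all 3-day arrays, an alternative chosen after seeing the data, the counts were 2, 3, 0, and 2. Setting array medians equal shifted the median of all probe sets by -0.14 at 4 weeks and -0.17 for older against adult (log2), and lowered the share of higher calls in older against adult to 18.8%, against 63.8%. Igfbp3 rc_AI009405_s_at and Igfbp5 M62781_at were each below the floor of 100 on 4 of the 18 arrays, and Igf1 X06107_i_at on 8, which limits what their folds can show.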

Other observations

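One probe set with no symbol in the annotation used here, M81183Exon_UTR_g_at, is described as Igf1 in a listing of the array that accompanied the study. It was picked after its values were seen. Its signal was 577, 502, and 1255 at 1 week in young, adult, and older rats, against 237, 144, and 314 without fracture. The log2 fold change was 1.30 ± 0.32 at 3 days (limma adjusted p = 0.00413), 1.70 ± 0.32 at 1 week (adjusted p = 0.00118), and 1.52 ± 0.32 at 2 weeks (adjusted p = 0.00323). It was not called at 4 weeks (0.77 ± 0.32) or 6 weeks (0.04 ± 0.32). Over the 18 arrays it correlated at 0.85 with Igf1 M15481_g_at.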
